A study of Mus musculus with 4 samples.

Results

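The clustered protocadherins are 58 genes that lie side by side on mouse chromosome 18, in an alpha cluster of 14 genes, a beta cluster of 22 and a gamma cluster of 22. The members were taken by family name and not by a threshold on measured values, but with earlier results of these data known. All 58 have a position in the RefSeq annotation of the mm10 genome. In the hippocampus, the CpG sites of the alpha cluster (which begins at position 36930285 of chromosome 18), of the gamma cluster (which ends at 37841873), of all sequence between them and of short flanks were taken where both libraries had at least 5 reads, which gave 2270 of 2226271 measured sites. These 2270 hippocampus sites are called protocadherin sites below, although 309 of them lay between or outside the clusters. In the frontal cortex, 16 of 9731 listed CpG sites had a member in their promoter, exon or intron annotation.

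Protocadherins are cell adhesion proteins of the neuron surface, and a protein of this family binds the same protein on another cell. Each alpha and gamma gene has its own large first exon, which codes for the outer part of the protein and is spliced to constant exons shared by the cluster, while a beta gene has all its coding sequence in its own exon. A neuron uses only some of these genes, chosen through their promoters with CTCF and cohesin, and DNA methylation of the promoter and first exon goes with silence. The C types (Pcdhac1, Pcdhac2, Pcdhgc3, Pcdhgc4 and Pcdhgc5) are the exception, since many neurons share them.

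The mice were wild type CD-1 females, an outbred stock. Their mothers carried a mini-osmotic pump from gestation day 9 for 7 days, filled with estriol (E3, 50 µl of 0.46 mg/ml in DMSO) or with DMSO alone (control, CT). Offspring were 8 weeks old by the sample labels. The study states a later age, in months, for its brain expression data. It is not stated whether the DNA of a library was that of 1 mouse or pooled. Each tissue had 1 E3 and 1 CT library, 4 in all, so nothing was replicated, and a test here compares 2 libraries rather than 2 treatments. Methyl-MiniSeq, the method used, reads bisulfite-converted DNA next to TaqαI and MspI cutting sites. The DNA came from whole tissue, so a shift in the mix of cells and a shift within a cell type cannot be told apart. Methylation tables hold no marker expression, and the tissue labels were not checked against markers.

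A methylation level is the percentage of reads with an unconverted cytosine. In the hippocampus a CpG site of the region had a median of 30 reads in the E3 library and 10 in the CT library. The sites reached part of each gene: 1194 of the 5472 CpGs in the 58 first exons were measured, or 21.8%, and the share was 13.9% in the alpha cluster without its C types and 37.3% in the C types. The first exons of Pcdha6, Pcdhb4, Pcdhb12 and Pcdhga6 held no measured site. The other 54 held 5 to 90 sites each.

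Most protocadherin first exons were intermediately methylated in both libraries. The median level of the 54 first exons was 61.9% in E3 and 63.1% in CT, while the median of all 9694 first exons tested was 1.51% and 1.19%. The alpha genes other than C types ranged from 38.5% to 86.8% in E3 and from 48.8% to 83.0% in CT. The beta genes ranged from 28.0% to 80.2% in E3 and from 49.3% to 97.3% in CT, and the gamma genes other than C types from 18.1% to 76.6% and from 21.7% to 89.4%. Within each cluster the ranges of the 2 libraries overlapped widely.

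The C types Pcdhgc3, Pcdhgc4 and Pcdhac2 lay at the low end in both libraries. The first exon of Pcdhgc3 had a level of 2.63% in E3 and 3.03% in CT over 90 sites, and that of Pcdhgc4 had 7.29% and 9.09% over 35 sites. Pcdhac2 had 13.2% and 17.2% over 72 sites. The other 2, Pcdhac1 and Pcdhgc5, differed between the libraries and are described further on. Pcdhac1 in CT (48.9%) and Pcdhgc5 in E3 (31.1%) were within the range of the other genes of their cluster. Over all 5, the mean site level was 14.2% in E3 and 15.9% in CT, against 56.7% and 58.9% in the first exons of the other members.

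**Figure D1:**
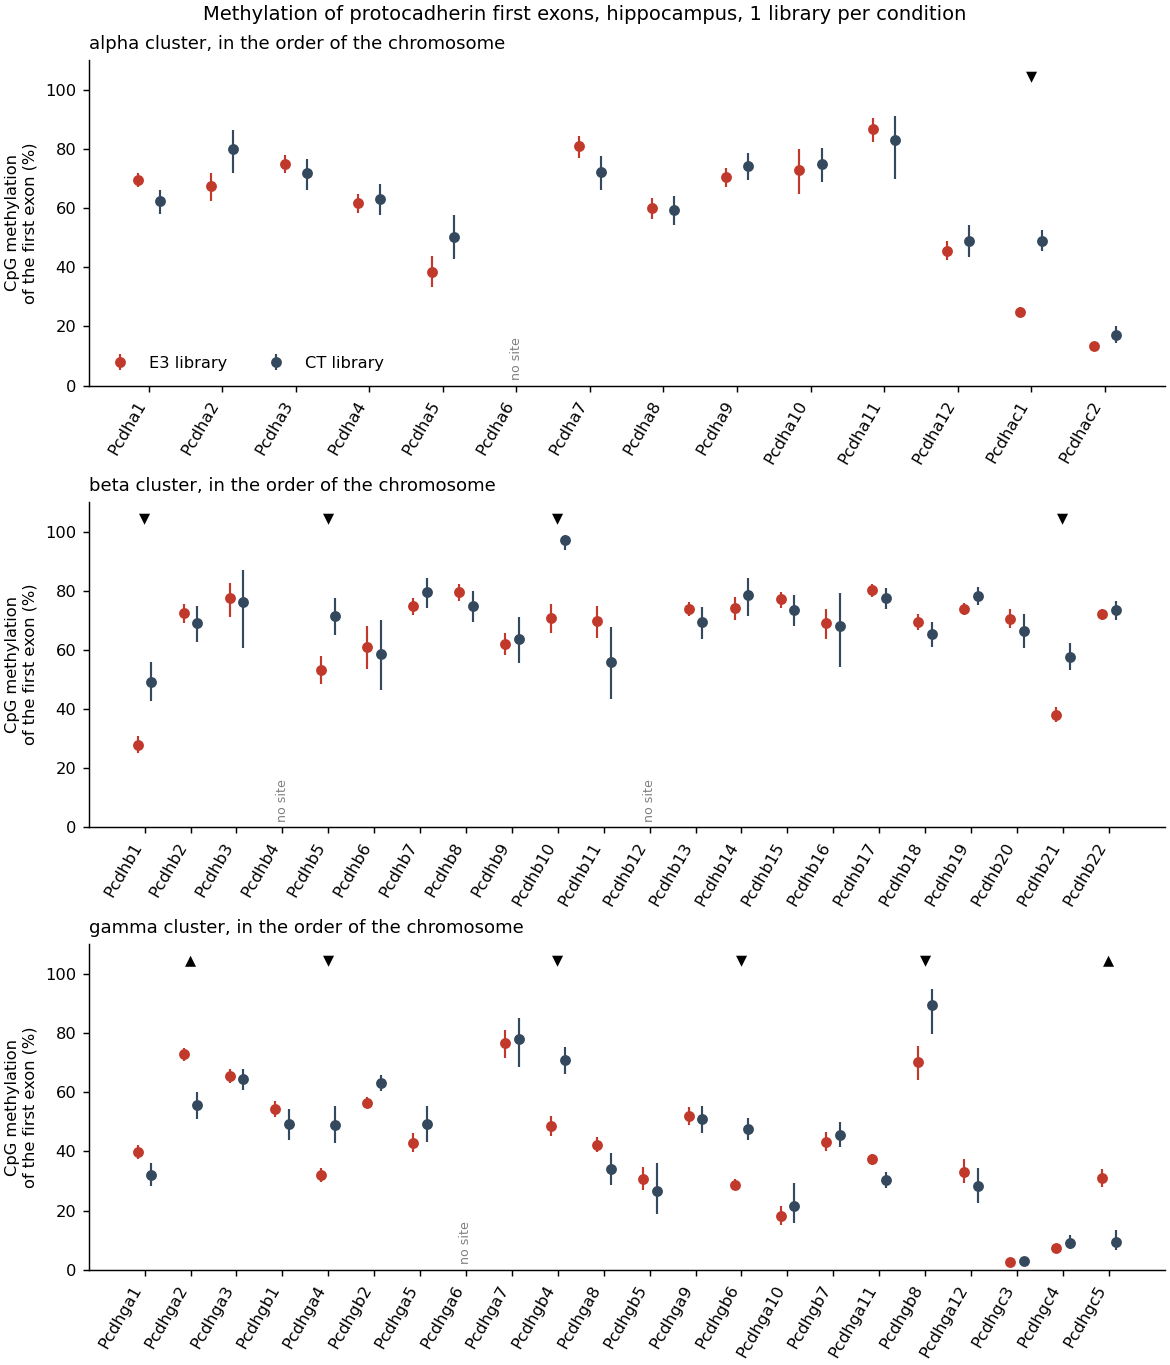
CpG methylation of each protocadherin first exon in the hippocampus, in percent of reads summed over its sites, with 95% Wilson intervals (counting error only), for the E3 (red) and CT (dark) libraries. Triangles mark the 2 first exons called higher and the 9 called lower in E3, and the C types at the right of the alpha and gamma panels include the lowest levels.

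In the alpha, beta and gamma genes other than C types, methylation was lower in the first 500 bases than 1000 to 1500 bases after the start, in both libraries. In the gamma genes other than C types, pooled reads within 250 bases after the start were methylated at 26.1% in E3 and 20.5% in CT, and those 1000 to 1500 bases after it at 68.1% and 65.2%. The alpha genes went from 38.6% and 33.1% to 78.3% and 72.5% over the same distances. In the beta genes the lowest level was at 250 to 500 bases, 26.9% in E3 and 37.0% in CT, and the level at 1000 to 1500 bases was 83.4% and 79.8%. The C types stayed at 13.7% or less in E3 and 23.5% or less in CT up to 1500 bases and had 42.8% in E3 and 45.5% in CT at 1500 to 2000 bases. The other groups did not keep rising. At 1500 to 2000 bases the gamma genes had 39.7% in E3 and 56.9% in CT, and the beta genes 64.0% and 72.7%. In the 250 bases before the start the beta genes had 68.3% and 54.5%, above the 48.7% and 43.5% of the 250 bases after it, and the 1 alpha gene measured there had 74.5% and 53.4%. Few genes had sites in each bin, from 1 to 17, so the curves compare partly different genes.

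**Figure D2:**
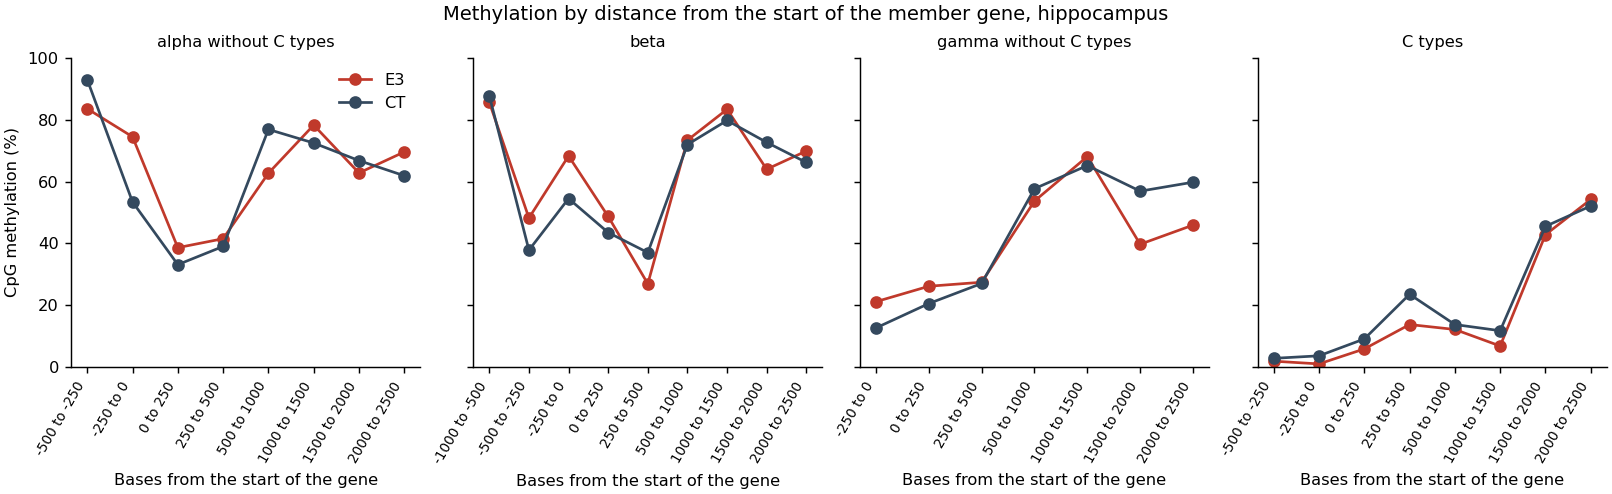
Pooled CpG methylation (percent of reads) in the hippocampus by distance in bases from the start of the member gene, for alpha, beta and gamma genes and for the C types, E3 in red and CT in dark. In alpha, beta and gamma genes both libraries rise from 250 to 500 bases to 1000 to 1500 bases after the start and are lower again at 1500 to 2500 bases, and the C types remain low until 1500 bases.

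The same first exons differ in sequence composition. The median number of CpGs per 100 bases was 4.74 in the alpha genes, 3.97 in the gamma genes and 2.27 in the beta genes, with 3.82 in the C types. Over the 54 measured first exons, CpG density and methylation level had a Pearson correlation of -0.34 in E3 and -0.32 in CT (Spearman -0.31 in both). This is a description across genes that share the libraries, and genes are not independent replicates. Members also share sequence. After the change of every C to T that bisulfite makes, a median of 21.9% of 50-base windows in alpha first exons occurred again elsewhere in the protocadherin region, 10.3% in beta first exons, 4.12% in gamma first exons and 0% in C types, and by type the gamma medians were 1.99% in A types and 17.2% in B types. Reads of the alpha, beta and gamma B genes are therefore less certain to sit at the right gene than those of the gamma A genes and C types. Among the called gamma B genes the repeated share was 15% in Pcdhgb4, 17.2% in Pcdhgb6 and 13.8% in Pcdhgb8.

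At single CpG sites, protocadherins held differences in both directions. A site counted as called where the libraries were 10 or more percentage points apart and a 2-sided Fisher's exact test gave p under 0.05 before any adjustment. Of the 2270 sites, 199 were called higher and 231 lower in E3, or 18.9%, where 11.0% of all CpG sites were called. By direction, 8.77% were higher and 10.2% lower, against 6.18% and 4.83% of all sites. The mean level over the sites was 51.4% in E3 and 52.5% in CT.

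Intermediate levels are where a call is most often made, and protocadherins have many of them. Sites with a mean level of 30 to 70% made up 28.9% of protocadherin sites and 13.8% of all sites. Among such sites 242 of 657 protocadherin sites were called, or 36.8%, against a background of 39.1% (24.8% higher and 14.3% lower). By direction, 116 of the 657 were called higher, or 17.7%, and 126 lower, or 19.2%, so the higher share was below that of all such sites and the lower share above it.

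The calls were spread over the clusters. In the alpha cluster 44 of 518 sites were called higher and 65 lower, in the beta cluster 62 of 565 higher and 58 lower, and in the gamma cluster 75 of 878 higher and 90 lower. First exons held 1637 sites, of which 148 were called higher and 198 lower (21.1%). Of the sites in first exons of all genes, 4.32% were called (1.06% higher and 3.26% lower). The mean level of these background sites was 6.10% in E3 and 6.27% in CT. At a mean level of 30 to 70%, 205 of 549 sites in protocadherin first exons were called, or 37.3%. Among sites at that level in first exons of all genes the share was higher, at 47.1% (3859 of 8199). In the 1000 bases before a start, 13 of 118 sites were called higher and 8 lower. The constant exons held 9 sites, 2 of them called higher. The remaining 506 sites had 36 higher and 25 lower calls, or 12.1%. They include 309 sites between or outside the clusters, among them those of the genes Taf7 and Slc25a2. Of these 309, which the cluster counts leave out, 18 were called higher and 18 lower (11.7%).

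Gamma genes come in A and B types by the likeness of their sequence. First exons of the A type had 41 sites called higher and 44 lower of 377, with a mean level of 45.0% in E3 and 44.7% in CT. Those of the B type had 15 called higher and 34 lower of 228, with 45.1% and 51.8%. Of the 54 measured first exons, 36 held calls in both directions, 6 held only higher calls, 11 only lower calls and 1, Pcdhb6, none. The same rule called 39.1% of all sites at the intermediate levels given above. First exons of all genes were not counted in this way, so these counts do not set protocadherins apart from other genes.

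**Figure D3:**
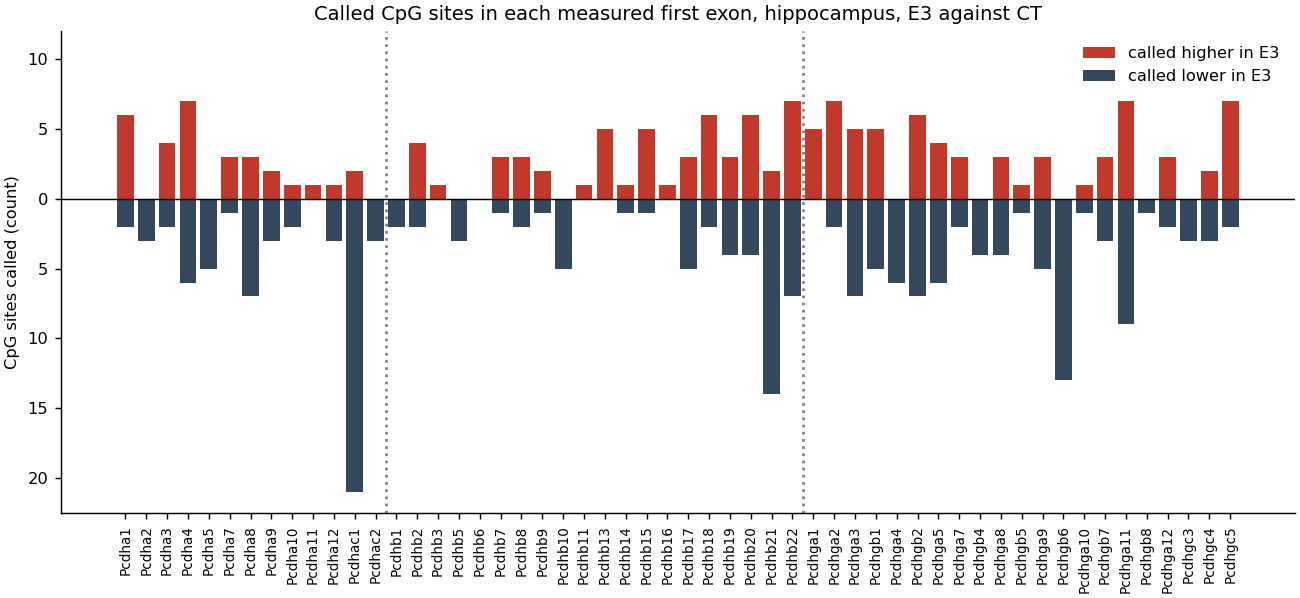
Number of CpG sites called higher (red, above the line) and lower (dark, below the line) in E3 in each of the 54 measured first exons, in the order of the chromosome, with dotted lines between the alpha, beta and gamma clusters. Pcdhac1 has 21 sites called lower and 2 higher, Pcdhb21 has 14 and 2, and Pcdhgb6 has 13 and 0, while most other exons hold calls in both directions.

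Calls on the 2 strands of a CpG often did not repeat each other. In the region, 603 CpGs were measured on both strands and 195 of them were called on at least 1 strand. Both strands were called higher at 12 CpGs and lower at 17, or 4.81%, where 1.73% of all such CpGs were called in the same direction on both strands (0.914% higher and 0.816% lower). At 12 CpGs the strands were called in opposite directions, as they were at 4531 of the 503685 CpGs measured on both strands in the whole table. Across these 603 CpGs the difference between the libraries on 1 strand and on the other had a Pearson correlation of 0.098. It was 0.075 over the whole table, so the strands repeated each other little outside the protocadherins too.

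To compare whole first exons, reads were summed over the sites of each exon. An exon counted as called where the libraries were 10 or more points apart and the 2-sided Fisher's exact test, Benjamini-Hochberg adjusted over all 9694 first exons, gave an adjusted p under 0.05. Of the 54 protocadherin first exons, 9 were called lower and 2 higher in E3, or 20.4%. The background was 5.15% of all first exons (2.00% higher and 3.15% lower), and 38.0% of the 558 first exons at a mean level of 20 to 80% (14.7% higher and 23.3% lower). Of the 48 protocadherins in that class, 20.8% were called. The median absolute difference was 4.40 points over the 54 protocadherins, 1.28 over all first exons and 9.82 over those at 20 to 80%. Another 5 protocadherin first exons passed the adjusted p but were less than 10 points apart. Pcdha1, Pcdhga1, Pcdhga8 and Pcdhga11 were higher in E3, by 6.88 to 8.43 points, and Pcdhgb2 was lower (-6.69 points). A read that spans several sites enters the sum several times, so these p-values are too small.

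The C-type gene Pcdhac1 had the lowest p. Its first exon (chromosome 18, 37090136 to 37092571) was methylated in 24.8% of 2767 E3 reads (95% Wilson interval from 23.2 to 26.4) and in 48.9% of 732 CT reads (from 45.3 to 52.5). The intervals, which cover counting error only because reads are not independent molecules, lay apart. The difference was -24.1 points (adjusted p = 3.2e-32, Fisher's exact test), with -18.0 points on the plus strand and -30.0 on the minus strand. It was smaller under alternatives, at -17.7 points when each site counted equally and -17.1 with reads thinned to equal depth. In the promoter, defined below, it was -16.9 points. None of the 50-base windows of the Pcdhac1 first exon occurred elsewhere in the region.

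The gamma C-type gene Pcdhgc5 went the other way. Its first exon (37819546 to 37822134) was methylated in 31.1% of 901 E3 reads (28.1 to 34.2) and in 9.49% of 295 CT reads (6.65 to 13.4). The difference was 21.6 points (adjusted p = 3.2e-13, Fisher's exact test), with 27.7 points on the plus and 14.4 on the minus strand. It was 11.1 points when sites needed at least 10 reads, and in the promoter (1000 bases on each side of the start) it was 9.51 points and not called. Of its 23 CpGs, with strands summed, 19 were higher in E3, 2 were lower and 2 were equal. Of the 5 C types, 1 was thus called lower and 1 higher. Pcdhac2, Pcdhgc3 and Pcdhgc4 were not called, with differences of -3.96, -0.40 and -1.80 points.

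No first exon of an alpha gene other than Pcdhac1 was called under the main settings. The nearest were Pcdha2, with 67.3% in E3 and 80% in CT (adjusted p = 0.0524), and Pcdha5, with 38.5% and 50.3% (adjusted p = 0.065), both by Fisher's exact test. Under alternatives, Pcdha2 passed when exons needed at least 10 sites, Pcdha1 and Pcdha4 when sites needed at least 10 reads, Pcdha1 and Pcdha9 with 1 site kept per 100 bases, and Pcdha5 and Pcdha9 in the promoter. Pcdhb11 was the third exon with a difference over 10 points that did not pass the adjusted p, at 69.7% and 55.9% (adjusted p = 0.17, Fisher's exact test). These 3 were singled out after their values were seen. The smallest difference in the alpha cluster was that of Pcdha8, with 60.0% in E3 and 59.2% in CT.

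In the beta cluster, whose genes each stand alone without constant exons, 4 first exons were called lower. Pcdhb10 (37411674 to 37414514) had 70.8% of 332 reads in E3 and 97.3% of 188 reads in CT, a difference of -26.6 points that rested on 20 sites, all on the minus strand. Pcdhb1 (37264998 to 37267454) had 28.0% of 890 reads and 49.3% of 223 reads. Its difference of -21.3 points was -30.3 on the plus strand and -2.42 on the minus strand, and it was -8.64 points, under the threshold, when each site counted equally and -6.82 with reads thinned to equal depth. Pcdhb21 (37513652 to 37516363) had 38.0% of 1456 reads and 57.7% of 452 reads, with -27.3 and -15.2 points on the strands. Pcdhb5 (37320381 to 37323913) had 53.1% of 431 reads and 71.6% of 201 reads, with -3.01 points on the plus and -25.5 on the minus strand, and it was not called when sites needed at least 10 reads (-12.9 points). The adjusted p of the 4, by Fisher's exact test, ran from 7.5e-14 for Pcdhb10 to 1.6e-04 for Pcdhb5. The smallest difference in the cluster was that of Pcdhb16, at 69.0% in E3 and 68.0% in CT.

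In the gamma cluster, 3 of the 7 measured B-type exons and 2 of the 11 measured A-type exons were called. Pcdhgb4 (37720376 to 37722917) had 48.6% of 794 reads in E3 and 70.9% of 357 reads in CT, with -23.8 points on the plus and -17.6 on the minus strand. Pcdhgb6 (37742094 to 37744658) had 28.7% of 2301 reads and 47.6% of 666 reads, with -15.8 and -21.0 points. Both were lower in E3 by more than 10 points on each strand. With reads thinned to equal depth the difference of Pcdhgb4 was -11.9 points, against -22.3 without thinning, and the promoter of Pcdhgb6 was not called (adjusted p = 0.0512, Fisher's exact test). Pcdhgb8 (37761801 to 37764299), which RefSeq lists as a pseudogene, had 70.1% of 241 reads and 89.4% of 66 reads over only 8 sites, and was not called with reads thinned to equal depth.

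Pcdhga2 (37668927 to 37671525) was the only protocadherin besides Pcdhgc5 called higher under the main settings. It had 72.8% of 1496 reads in E3 and 55.7% of 467 reads in CT. The difference was 14.4 points on the plus and 15.7 on the minus strand, and over the whole exon it was 17.1 points. It was 8.74 points, under the threshold, when each site counted equally, and 10.9 with reads thinned. Pcdhga4 (37685237 to 37687817) was lower, at 31.9% of 1392 reads and 49.0% of 241 reads, with -5.76 points on the plus and -34.1 on the minus strand. Its difference of -17.1 points was -10 when each site counted equally, and it was not called with reads thinned. The adjusted p of the 5, by Fisher's exact test, ran from 6.7e-17 for Pcdhgb6 to 0.0107 for Pcdhgb8. The smallest difference in the cluster was that of Pcdhgc3.

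Calls in the same direction lay side by side in places. With the strands of a CpG summed, 12.1% of all CpGs were called (6.73% higher and 5.36% lower), and a run was at least 3 CpGs called in 1 direction, each at most 200 bases from the next, with none called the other way between them. The protocadherin region held 29 runs, 15 higher and 14 lower in E3, or 17.4 per 1000 CpGs, against 6.73 per 1000 over the whole table. All but 1 lay in or reached into a first exon, in 22 genes. Pcdhb22, Pcdhga3 and Pcdhga11 each held a higher and a lower run.

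The longest was in Pcdhac1. It began 165 bases after the start of the gene and covered 516 bases (37090301 to 37090816), where 13 of 23 CpGs were called lower in E3. Their levels ran from 0% to 65.3% in E3 and from 25% to 92.0% in CT. Over all 23 CpGs the level was 22.2% of 2078 reads in E3 and 53.9% of 427 reads in CT, and 17 of the 23 were lower in E3. Among the most deeply read were 4 CpGs from 452 to 472 bases after the start, which had 31.0%, 16.4%, 19.5% and 7.64% in E3 and 85.7%, 71.4%, 71.4% and 50.0% in CT, each on 157 to 159 reads in E3 and 28 in CT. These 4 were lower in E3 by 42.4 to 55.1 points. At the same depth the CpGs at 436 and 507 bases had 35.0% and 28.5% in E3 and 78.6% and 50.0% in CT. The difference at 507 bases was -21.5 points, and its plus strand went the other way, with 23.5% of 68 reads in E3 and 0% of 12 reads in CT. Not all of the exon moved: the 4 CpGs from 19 to 88 bases after the start had 0% in CT and 0% to 20.8% in E3, and the CpG at 707 bases, just past the run, was called higher, at 92.6% in E3 and 73.1% in CT.

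**Figure D4:**
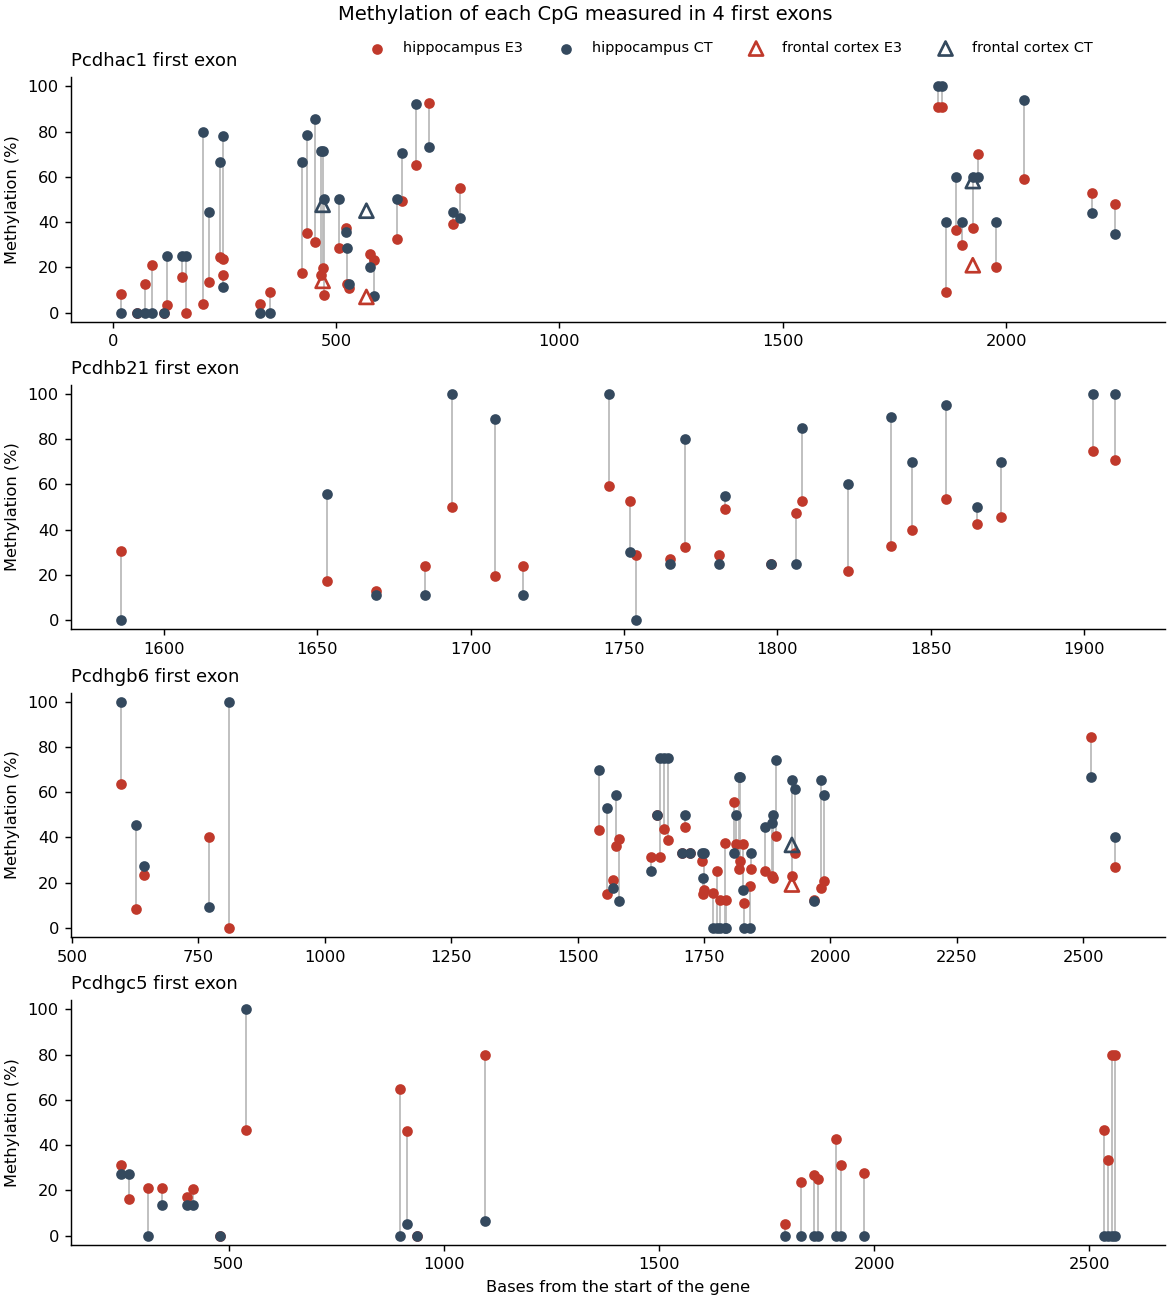
Methylation (percent) of each CpG measured in the hippocampus in the first exons of Pcdhac1, Pcdhb21, Pcdhgb6 and Pcdhgc5, by distance in bases from the start of the gene, E3 in red and CT in dark, joined by a grey line. Open triangles are sites listed in the frontal cortex, and in Pcdhac1 all 3 of them lie lower in E3.

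Pcdhb21 held 2 runs next to each other, with 4 of 7 and 7 of 13 CpGs called lower. Over the first the level was 32.0% in E3 and 59.7% in CT, and over the second 40.1% and 65.3%. In Pcdhgb6, 7 of 8 CpGs within 105 bases were called lower (37743978 to 37744082), at 25.2% of 1054 reads in E3 and 53.7% of 300 reads in CT. Pcdhgc5 held 2 higher runs far apart in the exon, at 38.9% and 3.33%, and at 60.0% and 0%. The second of them rested on 31 CT reads over 4 CpGs.

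Runs also lay in exons that were not called as a whole. Within 21 bases of Pcdha4, 3 of 3 CpGs had 86.9% of 84 reads in E3 and 11.1% of 36 reads in CT, although the exon had 61.7% and 63.1%. In Pcdhb20, 3 of 3 CpGs had 88.9% of 81 reads and 16.7% of 24 reads, and in Pcdhgb7 3 of 4 CpGs had 24% of 100 reads and 68.1% of 144 reads. In Pcdhga3 a higher run (33.1% in E3 and 4.04% in CT) ended 50 bases before a lower run began (29.0% and 55.9%). Neighbouring CpGs share reads, so fewer reads lie behind a run than these sums. The other runs were in Pcdha1, Pcdhb8, Pcdhb13, Pcdhb15, Pcdhga1, Pcdhga2, Pcdhgb2 and just before Pcdha8 (higher), and in Pcdha8, Pcdha12, Pcdhb10, Pcdhb19, Pcdhga5 and Pcdhgb6 (lower).

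The sites with the smallest p lay mostly in these exons. In the alpha cluster the lowest p of a site called lower was in Pcdhac2, 1155 bases after the start, with 5.88% of 34 E3 reads and 86.7% of 30 CT reads methylated (Fisher's exact test, p = 1.5e-11). The other strand of the same CpG had 9.38% of 64 reads and 0% of 12 reads, so the CT level was high on 1 strand only. A level of 0% on few reads is imprecise, and 0 of 6 reads allows up to 50%, 0 of 12 up to 25% and 0 of 20 up to 15% by the rule of 3 counts. The next sites, both in Pcdhac1, had 31.1% and 15.4% in E3 and 100% and 75.0% in CT, and the other strand was called lower at both. The 3 sites called higher with the smallest p were all in Pcdha4, with 78.6% to 100% of 28 reads in E3 and 0% to 16.7% of 12 reads in CT.

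In the beta cluster the smallest p of all, 1.2e-15 by Fisher's exact test, was at a site of Pcdhb17 with 100% of 65 reads in E3 and 33.3% of 42 reads in CT, while the exon had 80.2% and 77.6%. A site of Pcdhb8 had 84.0% of 25 reads in E3 and 0% of 13 reads in CT. A site 3101 bases after the start of Pcdhb2, outside any member exon, had 100% of 54 reads and 25% of 8 reads, and its other strand was called higher too. The lower sites were in Pcdhb21, with 14.8% and 30.2% in E3 and 100% of 18 reads in CT at both. The other strand of the first had 28.1% of 57 reads in E3 and 27.3% of 22 reads in CT and was not called. At the second the other strand was called lower. A lower site of Pcdhb22 had 50.0% in E3 and 100% in CT. In the gamma cluster 2 sites of Pcdhga2 had 72.2% of 79 and 92.7% of 41 reads in E3 and 0% of 20 and 0% of 10 reads in CT. A site of Pcdhga5 had 80.6% in E3 and 0% of 8 reads in CT, but its other strand had 41.7% and 28.6% and was not called. At 2 other sites of Pcdhga5 the levels were 6.67% of 30 reads in E3 and 100% of 10 reads in CT. The other strand of both was called lower. A site of Pcdhgb6 had 30.2% of 63 reads and 100% of 17 reads, but its other strand had 46.2% and 60.6% and was not called.

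In the frontal cortex, the table lists only sites that the authors had called, without read depth, so no test was made. It held 16 protocadherin CpG sites, 6 higher and 10 lower in E3. The share that was lower was 62.5%, against 63.7% of all 9731 listed sites. There were 5 in the alpha cluster (1 higher), 3 in the beta cluster (1 higher) and 8 in the gamma cluster (4 higher). All but 1 were annotated to a promoter or exon, in 12 genes, 14 lay in a RefSeq first exon and 4 in a CpG island.

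Pcdhac1 was the member with most listed sites, 3, and all were lower in E3. They lay 470, 568 and 1925 bases after the start, with 14.0% in E3 and 47.6% in CT, 6.90% and 45.0%, and 20.9% and 58.1%. Pcdhac2 had 2.56% and 16.0% at 283 bases, and Pcdhgc3 had 21.4% and 2.13% at 1304 bases. Other sites lower in E3 were in Pcdhb5 (3.70% and 33.3%), Pcdhb22 (29.0% and 64.3%), Pcdhga4 (8.57% and 25.7%), Pcdhgb6 (19.2% and 36.7%) and Pcdhga10 (41.1% and 75.4%). Those higher in E3 were in Pcdha9 (63.9% and 13.8%), Pcdhb13 (56.5% and 12.0%) and Pcdhga11 (38.5% and 17.4%). Pcdhgb7 held a site of each direction, with 27.5% and 3.12% at the first and 0% and 15.4% at the second. The site in neither a promoter nor an exon lay in gamma introns, with 26.8% and 3.33%.

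Of these 16 CpGs, 12 were also measured in the hippocampus, where 8 differed with the same sign. Of the 12, 3 were called there, all 3 in the same direction as in the frontal cortex. With strands summed, 340 of the 1667 CpGs of the region were called in the hippocampus, or 20.4% (162 higher and 178 lower). Whether the tissues agreed beyond that share was not tested. In Pcdhac1 the CpG at 470 bases had 19.5% of 159 E3 reads and 71.4% of 28 CT reads methylated (Fisher's exact test, p = 1.3e-07). In Pcdhgb6 the CpG 1924 bases after the start had 23.1% of 182 reads and 65.4% of 52 reads (Fisher's exact test, p = 2.9e-08). In Pcdhb13 the CpG at 964 bases had 50.0% of 32 reads and 0% of 6 reads (Fisher's exact test, p = 0.0299). The first and second lie inside the hippocampus runs of these genes. The third Pcdhac1 site had 37.5% of 8 reads and 60.0% of 10 reads in the hippocampus, which the depth cannot separate.

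**Figure D5:**
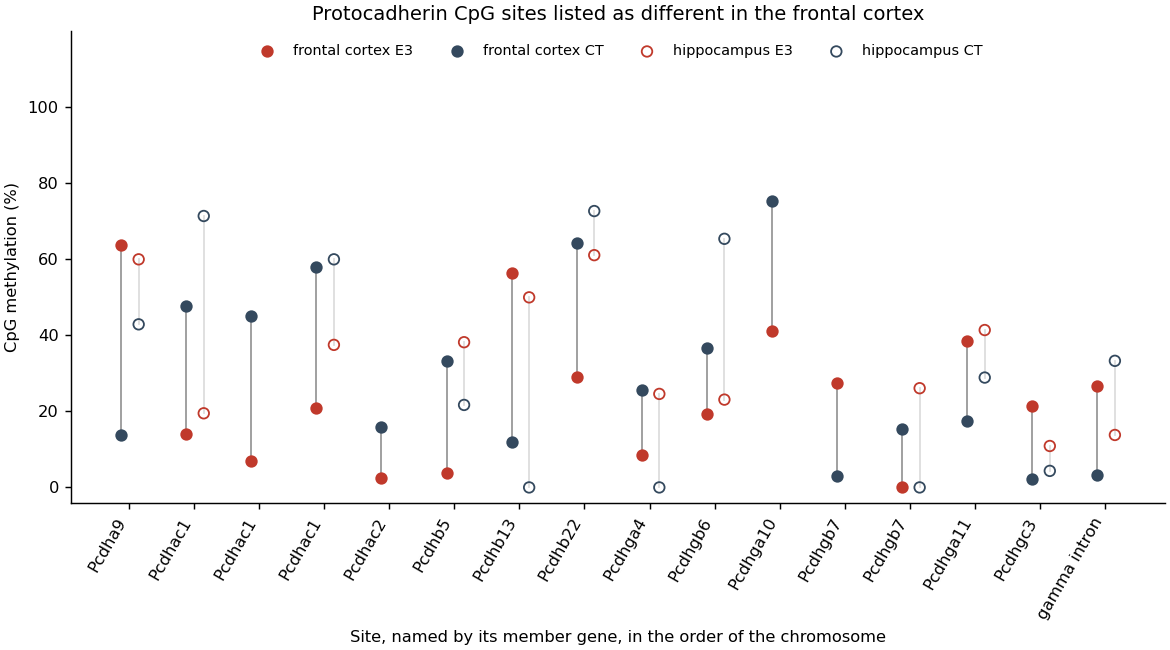
CpG methylation (percent) at the 16 protocadherin sites listed in the frontal cortex (filled points, E3 in red and CT in dark) and, at the 12 measured there, in the hippocampus (open points). All 3 sites of Pcdhac1 were lower in E3 in the frontal cortex, and the 2 measured in the hippocampus had lower levels there too, of which 1 was called.

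Cytosines outside CpG, written CHG and CHH where H is any base but G, were hardly methylated. Over 3977 CHG sites of the region the mean level was 1.90% in E3 and 1.62% in CT, and over 10192 CHH sites 1.92% and 1.49%. Of the CHG sites 3 were called higher and 97 lower (2.51%), where 3.42% of all CHG sites were called (0.254% higher and 3.17% lower). Of the CHH sites 16 were called higher and 227 lower (2.38%), against 3.68% (0.319% higher and 3.36% lower). Lower calls outnumbered higher ones in the whole table as well. A site of the region had a median of 32 reads in E3 and 10 in CT in both contexts. With the E3 and CT reads thinned to equal depth at each site, 2 CHG sites were called higher and 25 lower, and 16 CHH sites higher and 64 lower. In the C-type first exons 2 of 475 CHG and 15 of 1065 CHH sites were called, all lower. The frontal cortex tables listed no CHG site and 1 CHH site annotated to a member, in Pcdhb15, with 0% in E3 and 30.0% in CT.

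Related genes elsewhere in the genome were described for comparison. Of 12 protocadherins outside the clusters, 9 had a first exon with enough sites and none was called. By Fisher's exact test, Pcdh17 (adjusted p = 1.7e-37), Pcdh19 (8.8e-07) and Pcdh7 (1.6e-06) passed the adjusted p. Their first exons were less than 10 points apart. The 9 tested exons had a median level of 3.76% in E3 and 4.30% in CT. The most called sites were in Pcdh19, with 26 higher and 22 lower of 162 sites and 42.7% in E3 and 35.2% in CT, in Pcdh17, with 0 higher and 20 lower of 117 sites and a first exon at 3.01% in E3 and 12.3% in CT, under the 10 point threshold, in Pcdh10 (2 and 11 of 173) and in Pcdh8 (2 and 9 of 229). Of 10 genes for CTCF, cohesin and its regulators, 8 first exons were tested and 2 were called lower. Smc1a, a cohesin subunit, had 24.6% in E3 and 44.0% in CT (adjusted p = 1.7e-07, Fisher's exact test), and Stag2, another, had 29.8% and 57.1% (adjusted p = 4.4e-06), and both genes lie on the X chromosome. Ctcf held 5 of 205 sites called lower and Wapl 2 higher and 2 lower of 168. For these and the next counts, which include promoter sites, the nearest background is that of sites in first exons of all genes. Of those, 1.06% were called higher and 3.26% lower. None of 4 tested first exons of genes that silence the clusters, among them Dnmt3a (4 of 119 sites called lower), and none of 9 of protocadherin signalling partners, among them Rac1 (4 of 61 sites called lower), Abi2 (2 of 115 lower) and Abi1 (1 higher and 1 lower of 66), was called. The highest level of these tested exons in either library was 2.88% in the silencing genes and 2.67% in the signalling partners. None of them could be called lower by 10 points. Ptk2, a signalling partner whose first exon was not tested, had 1 site called higher and 1 lower of 95. Taf7 and Slc25a2, which lie between the beta and gamma clusters, were not called and stood at the extremes, with 0.634% and 95.1% in E3 and 1.88% and 97.5% in CT.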

How the data were processed

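DNA methylation was measured in 4 libraries, 1 per tissue and condition. Per the paper's methods, reads were trimmed with TrimGalore 0.6.4, checked with FastQC 0.11.8, aligned to mm10 with Bismark 0.19.0 and called with MethylDackel 0.4.0. Hippocampus tables, as deposited, hold the total read count and the methylated fraction of every site, and methylated reads were rebuilt as their product, rounded, which can be off by a read where coverage is high. The frontal cortex tables of the authors give the methylated fraction at called sites only, with no depth. Columns of the authors' comparisons (differences, p-values and classes) were not used.

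First exons and gene starts came from RefSeq, with 1 transcript per gene. Sites needed at least 5 reads in both libraries, exons at least 5 sites, and intervals are Wilson intervals. Fisher's exact test and the Benjamini-Hochberg adjustment ran over whole tables in Python 3.11.15 with SciPy 1.17.1 and were tested on simulated data. The simulation drew each site independently, so it cannot show how reads that span several sites affect the p-values of exons. Genes named are all called exons, the smallest difference per cluster, C types, listed frontal cortex genes, runs, the 3 sites of smallest p per cluster and direction, and up to 4 genes of each comparison list with the most called sites. Members, lists and rules were chosen with earlier results of these data known. Alternatives changed the coverage minimum, the threshold, the adjustment, the weighting, the region or the depth.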

Additional observations from a re-analysis of the deposited data

Results flagged for a closer look

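At 4 protocadherin CpGs the difference between the E3 and CT libraries had opposite signs in the hippocampus and the frontal cortex. The difference between the tissues was not tested, and none of the 4 was called in the hippocampus by Fisher's exact test. The E3 minus CT difference in the hippocampus was 16.5 points at position 37320154 (promoter of Pcdhb5), 24.6 points at 37685594 (Pcdhga4) and 26.1 points at 37753800 (Pcdhgb7), all of which were lower in E3 in the frontal cortex. At 37835602, in introns of gamma members, it was -19.5 points, and the frontal cortex value was higher in E3. In the hippocampus the CT level at the Pcdhga4 and Pcdhgb7 sites rested on 6 reads each.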

How the results depend on the processing

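Against 430 CpG calls, 276 were made with at least 10 reads, 64 with at least 20, 141 with adjusted p-values and 250 with the deeper library thinned to the depth of the other. Against 100 CHG calls these settings gave 50, 19, 24 and 27, and against 243 CHH calls 139, 54, 63 and 80. The first 2 settings test fewer sites. The share of protocadherin CpG sites called stayed above that of all sites under each alternative, but no alternative matched the methylation level. Among sites at a mean level of 30 to 70% the order turned, with 36.8% of protocadherin sites called against 39.1% of all sites. Of the 11 first exons, 1 (Pcdhb10) was called at 25 points and 6 (Pcdhac1, Pcdhb21, Pcdhga2, Pcdhgb4, Pcdhgb6 and Pcdhgc5) with 10 points on each strand, with none added. The other alternatives called 8 to 15 exons or promoters, of which 5 (promoters) to 10 were among the 11. With 1 site per 100 bases 15 were called and 9 shared, and with at least 10 reads 13 and 9. By direction, the 15 were 6 higher and 9 lower and the 13 were 5 higher and 8 lower, against 2 higher and 9 lower under the main settings. Of 16 frontal cortex sites, 8 differed by at least 25 points. Signs turned for Pcdhb5 and Pcdhac2 in the promoter (3.22 and 1.80 points), for Pcdhgc3 with sites weighted equally (0.386) and for Pcdhgc4 with 1 site per 100 bases (0.910); the cause was not tested. No paired analysis was possible because each group has 1 library, which also leaves no library to leave out. Depth in CT, a median of 10 reads per site, limits the precision of every level.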
